A study of Ovis aries with 16 samples.

Results

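The genes described here are markers of macrophages and other myeloid cells in the adipose tissue of adult ewes, measured by RNA sequencing. They are CD68, CD14, MRC1, C1QA, C1QC, TYROBP, FCER1G and C5AR1. They were chosen by symbol from a list of 10 markers, of which 8 have a row among the 28524 genes of the deposited count table. The other 2, CD163 and C1QB, are not analysed here.

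The ewes' mothers had been injected daily with bisphenol A (BPA), an industrial compound of plastics and resins with weak oestrogenic activity, or with its corn oil vehicle. BPA was given subcutaneously at 0.5 mg/kg per day from day 30 to day 90 of pregnancy, which lasts about 147 days. The female offspring were kept on a maintenance diet and sampled at about 21 months of age, 24 hours after oestrus-synchronizing prostaglandin F2α was given for the last time. Subcutaneous fat came from the sternal region, and visceral fat was mesenteric fat from around the rumen. The groups were subcutaneous BPA (ewes 918, 922, 941 and 977), subcutaneous control (902, 924, 928 and 931), visceral BPA (910, 918, 977 and 984) and visceral control (902, 908, 924 and 928), with 4 libraries each. The numbers open the sample titles and are used here as names of ewes, although the labels do not say that they are. Exposure to BPA or vehicle ended before birth. Whole tissue was sequenced, so fewer myeloid cells and less RNA per cell cannot be told apart.

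Macrophages are the most common immune cells of healthy adipose tissue, where they clear dying adipocytes, take up lipid and remodel the matrix. CD68 is a lysosomal glycoprotein, CD14 a co-receptor for bacterial lipopolysaccharide, and MRC1 (CD206) a mannose receptor of tissue-resident macrophages. C1QA and C1QC encode chains of C1q, which starts the classical complement pathway and is made mainly by macrophages. TYROBP (DAP12) and FCER1G (the Fc receptor gamma chain) are membrane adaptors that carry immunoreceptor tyrosine-based activation motifs (ITAMs), which recruit the kinase SYK. C5AR1 is the receptor for the complement fragment C5a. These roles are known mostly from mouse and human. TYROBP is also found in natural killer cells, FCER1G in mast cells and natural killer cells, C5AR1 in neutrophils and mast cells, and MRC1 in some endothelial cells.

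Total counts per library were 3046126 to 4828287 in subcutaneous BPA fat, 4738482 to 6223460 in subcutaneous control fat, 6768945 to 14305764 in visceral BPA fat and 10998858 to 13110261 in visceral control fat. Both depots carried their defining adipocyte marker, since ADIPOQ, which encodes adiponectin, had at least 11454 counts in every library. In a principal component analysis the first component (32.8% of the variance) separated the depots. Visceral BPA library 977 stood apart on the second component, and subcutaneous controls 902 and 924 on the third. Some of the results that rest on them are also given without them.

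The 8 rows are distinct gene models, and none shares exon bases with another gene of the table. The merged exons have a total length of 576 bases for TYROBP, 1081 for FCER1G, 1120 for CD14, 1133 for C1QA, 1694 for CD68, 2966 for C5AR1, 3044 for C1QC and 4368 for MRC1. TYROBP lies 108 bases from HCST on the other strand, and HCST had 43 counts in all 16 libraries together. C1QC lies 4177 bases from C1QA and spans 19284 bases in 9 merged exons. In the RefSeq annotation of the ARS-UI_Ramb_v3.0 assembly, C1QB and LOC101123446 precede C1QC, which precedes C1QA. Whether the C1QC row of the count table also holds reads from C1QB was not tested.

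By mean level per length of merged exons, MRC1 was the highest of the 8 markers in 3 of the 4 groups, and C5AR1 was the lowest in all 4. Levels are CPM, the usual library-size-scaled counts, with totals adjusted by TMM factors over the 16 libraries and, for comparisons between genes, divided by the gene length in kilobases. On that scale MRC1 had a level of 38.7 ± 10.5 CPM per kilobase in subcutaneous BPA fat, 78.2 ± 57.4 in visceral BPA fat and 95.2 ± 25.8 in visceral control fat (SD, n = 4 each). C1QA came next, at 35.1 ± 6.21, 54.4 ± 10.2 and 59.6 ± 18.6 in the same order. It exceeded MRC1 in subcutaneous BPA libraries 922 and 941 and visceral control library 924, and lay below it in the other libraries of those groups. In subcutaneous control fat C1QA was highest, at 69.1 ± 16.3 CPM per kilobase, followed by C1QC at 55.4 ± 13.1 and MRC1 at 53.1 ± 9.55. These 3 levels lay within their spread of each other. In visceral BPA fat the MRC1 mean rests on library 984, at 164 CPM per kilobase, against 44.9, 53.9 and 50.1 in libraries 910, 918 and 977, where C1QA had 40.8, 54.7 and 65.5. CD14, CD68, TYROBP and FCER1G filled the middle ranks in every group, and C5AR1 had 5.02 ± 0.987 CPM per kilobase in subcutaneous BPA fat against 12.7 ± 1.46 in subcutaneous control fat.

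Subcutaneous BPA fat had the lowest mean level of all 4 groups for each of the 8 markers. The next higher group was clear of it, with no overlap, for CD68, CD14, C1QC and TYROBP, and overlapped with it for MRC1, C1QA, FCER1G and C5AR1. Among the other 3 groups, neighbours in the order of means overlapped for every marker. Summed over the 8 markers, the level was 251 to 431 CPM in subcutaneous BPA fat and 524 to 743 CPM in subcutaneous control fat. It was 498 to 1110 CPM in visceral BPA fat and 709 to 865 CPM in visceral control fat.

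**Figure D1:**
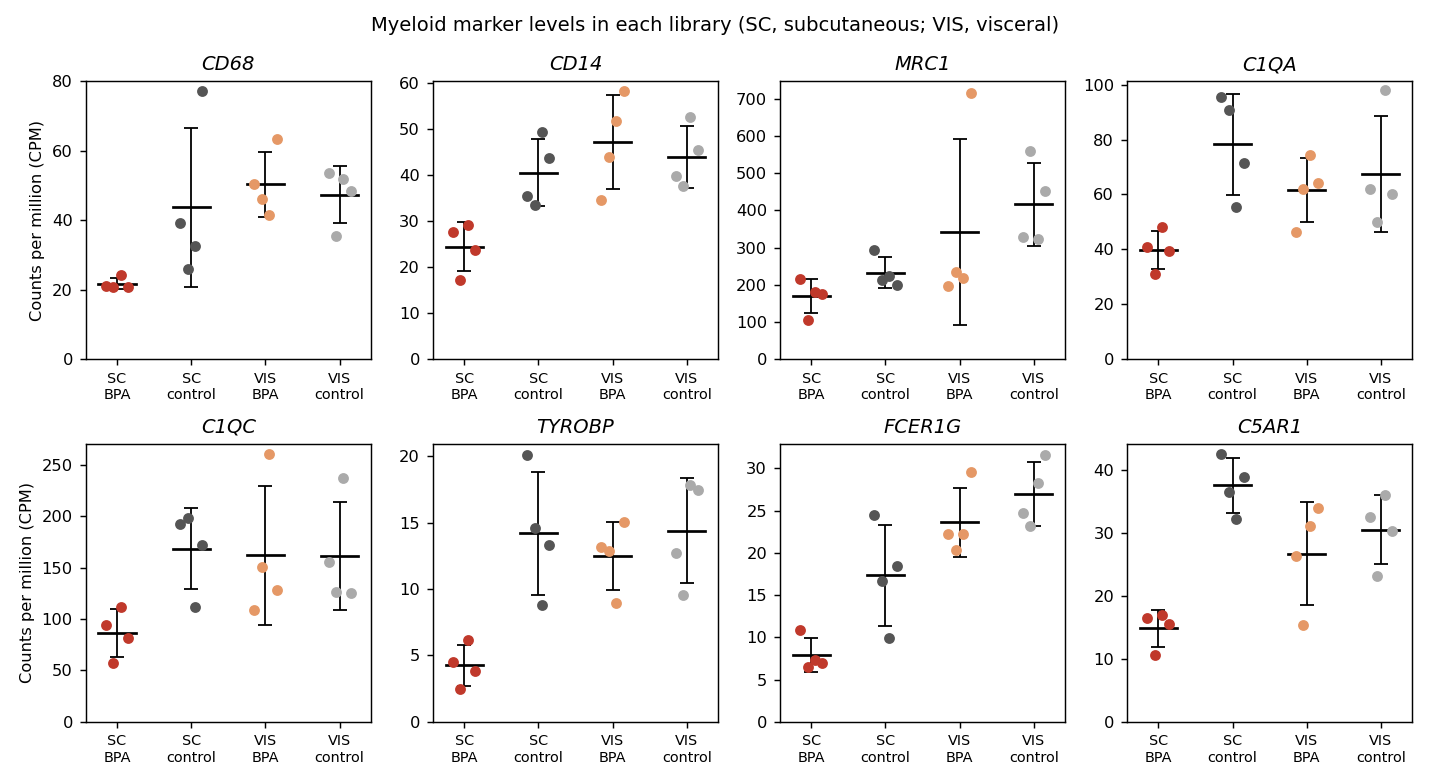
Level of each of the 8 markers (CPM, vertical axes from 0) in each library of the 4 groups, with 1 point per library, the mean (line) and the SD (bar, n = 4). The 4 subcutaneous BPA libraries lie low in every panel, and visceral BPA library 984 stands at 717 CPM for MRC1.

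BPA against control in subcutaneous fat asked whether exposure before birth altered this depot in the adult. All 8 markers had lower estimates in BPA fat, with a median log2 fold change of -0.98. Of all 13535 genes tested 50.8% had a lower estimate, and their median was -0.01. C5AR1 and TYROBP fell, and the other 6 were not called (edgeR quasi-likelihood test, two-sided, Benjamini-Hochberg adjusted p under 0.05). Over all genes, 0.103% were called lower and 0.606% higher. At an unadjusted p under 0.05, 7 of the 8 markers were lower, all but MRC1, as were 7.02% of all genes. DESeq2, which called 0.949% of the 21399 genes with any count lower, called 6 of the 8 lower, all but CD68 and MRC1. Limma voom called 1 of 14793 genes and 0 of the 8.

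C5AR1, the C5a receptor, had 16.5, 10.6, 17.0 and 15.5 CPM in BPA libraries 918, 922, 941 and 977, against 42.6, 36.6, 32.3 and 38.9 CPM in control libraries 902, 924, 928 and 931. Every BPA library lay below every control library, with a wide gap between them. C5AR1 was 2.52-fold lower (log2 fold change -1.33 ± 0.18, SE, n = 4 each; edgeR adjusted p = 0.00868). It was called in each of the 8 omissions of 1 library (edgeR adjusted p 0.02 to 0.0386). Without controls 902 and 924 together, its log2 fold change was -1.25 (edgeR adjusted p = 0.126), and with genes under 200 bases left out it was -1.33 (edgeR adjusted p = 0.0542). Over all 19 alternatives the adjusted p ran from 8.14e-08 to 0.144, and 14 of them called it.

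TYROBP, the adaptor DAP12, had 4.53, 2.48, 6.15 and 3.81 CPM in BPA libraries 918, 922, 941 and 977, against 20.1, 14.6, 8.78 and 13.3 CPM in control libraries 902, 924, 928 and 931. The groups did not overlap, although the BPA values rest on 11 to 22 counts per library. TYROBP was 3.36-fold lower (log2 fold change -1.75 ± 0.33, SE, n = 4 each; edgeR adjusted p = 0.0447). The call was lost in 7 of the 8 omissions of 1 library, and held without control 928 (edgeR adjusted p 0.0371 to 0.142 over the 8). Without controls 902 and 924 together the log2 fold change was -1.37 (edgeR adjusted p = 0.264), and with genes under 200 bases left out -1.74 (edgeR adjusted p = 0.157). Over all 19 alternatives the adjusted p ran from 0.000355 to 0.265, and 6 of them called it.

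FCER1G, the other ITAM adaptor, had 10.9, 6.54, 7.32 and 6.95 CPM in BPA libraries 918, 922, 941 and 977, against 24.4, 16.7, 9.87 and 18.4 CPM in control libraries 902, 924, 928 and 931. BPA library 918 lay above control library 928, so the groups overlapped. Its log2 fold change was -1.12 ± 0.29 (SE, n = 4 each; edgeR adjusted p = 0.128). Without controls 902 and 924 together it was -0.81 (edgeR adjusted p = 0.409).

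The C1q chains had similar estimates. C1QA had 40.8, 30.9, 48.1 and 39.5 CPM in the BPA libraries 918, 922, 941 and 977 and 95.4, 90.6, 55.3 and 71.6 CPM in controls 902, 924, 928 and 931, with no overlap (log2 fold change -0.97 ± 0.20; edgeR adjusted p = 0.0578). C1QC had 94.6, 57.1, 112 and 81.9 CPM in the BPA libraries and 193, 198, 111 and 172 CPM in the controls, in the same order (log2 fold change -0.96 ± 0.23; edgeR adjusted p = 0.101). BPA library 941 and control library 928 met at about the same C1QC level. Both chains were highest in controls 902 and 924, the libraries that stood apart, and without these the log2 fold change of C1QA was -0.66 (edgeR adjusted p = 0.289, range over its 19 alternatives 0.00114 to 0.289) and that of C1QC -0.70 (0.368, range 0.00633 to 0.368).

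CD68, the lysosomal marker, had 21.0, 20.7, 24.3 and 20.9 CPM in BPA libraries 918, 922, 941 and 977, against 39.1, 26.0, 32.4 and 77.1 CPM in controls 902, 924, 928 and 931. The groups did not overlap, with a narrow spread in BPA fat and control 931 far above the other controls. The log2 fold change was -1.0 ± 0.30 (SE, n = 4 each; edgeR adjusted p = 0.179), and -0.57 without control 931 (edgeR adjusted p = 0.188, range over its 19 alternatives 0.0552 to 0.40).

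CD14, the lipopolysaccharide co-receptor, had 27.6, 17.1, 29.0 and 23.8 CPM in BPA libraries 918, 922, 941 and 977 and 35.5, 33.5, 49.2 and 43.6 CPM in controls 902, 924, 928 and 931, with no overlap (log2 fold change -0.73 ± 0.20; edgeR adjusted p = 0.139). MRC1, the mannose receptor, had 215, 106, 181 and 175 CPM in the BPA libraries and 293, 212, 224 and 200 CPM in the controls, in the same order (log2 fold change -0.45 ± 0.21; edgeR adjusted p = 0.36). For MRC1 the groups overlapped, through BPA library 918 and controls 924 and 931. In all, 5 of the 8 markers were lower with no overlap, namely CD68, CD14, C1QA, TYROBP and C5AR1, as were 3.16% of all genes tested.

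Several measures moved with these values. Subcutaneous BPA libraries were shallower, with totals of 3046126 to 4828287 counts against 4738482 to 6223460 in controls. Genes shorter than 200 bases took 0.991 ± 0.329% of their counts, against 0.386 ± 0.0493% in controls (SD, n = 4 each), with no overlap. Thinned to the total of the shallowest library, C5AR1 was called (edgeR adjusted p = 0.00841) and TYROBP was not (0.068), while with the library total as a covariate neither was (0.144 and 0.265). Without controls 902 and 924, all 8 estimates were still below 0, with a median of -0.87 and 7 at an unadjusted p under 0.05. Over all genes edgeR then called 0 and 1576 had an unadjusted p under 0.05, and DESeq2 was not run without those libraries. The part of these measures in the result was not tested.

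**Figure D2:**
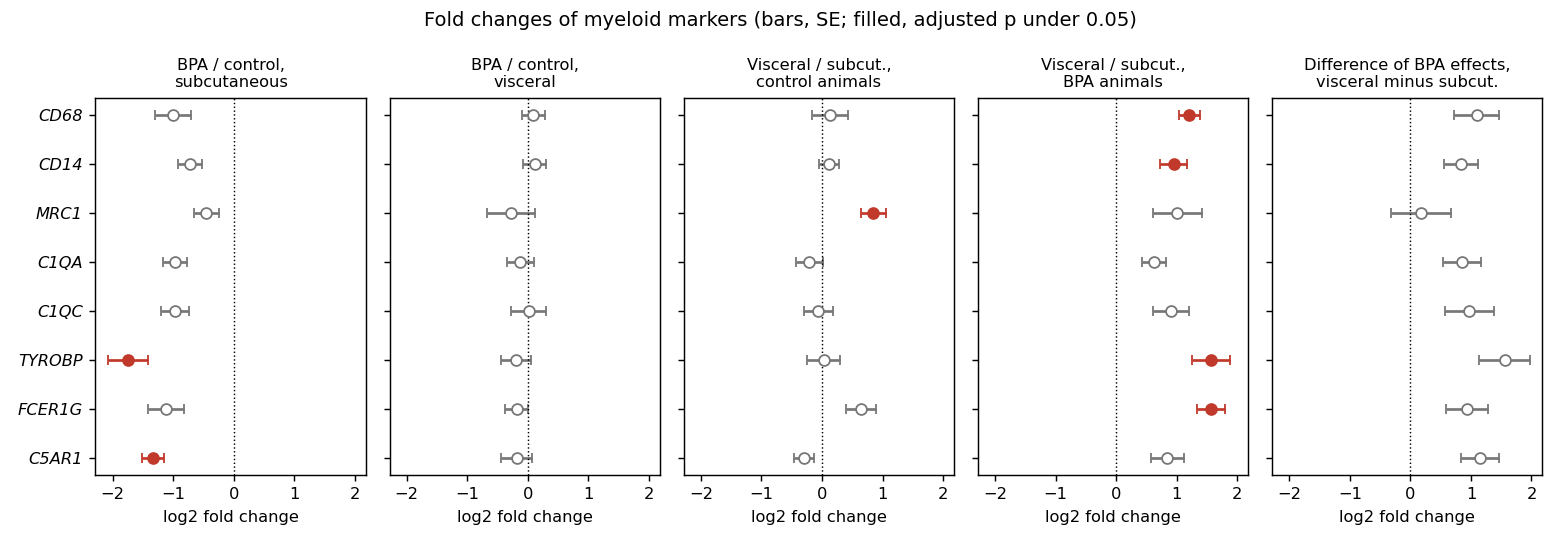
Log2 fold change of each marker (horizontal axes) with its SE (bars) in the 5 comparisons, filled and red where the adjusted p was under 0.05. All 8 points lie left of 0 for BPA against control in subcutaneous fat, and all 8 lie right of 0 for visceral against subcutaneous fat of BPA ewes.

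The other genes of these pathways were read from lists, described by counts and medians. List counts at an unadjusted p under 0.05 cover both directions. With DESeq2 size factors in edgeR, 1919 of all 13535 genes had such a p in subcutaneous fat. Of 16 tested genes of monocytes and macrophages outside the 8 markers, 15 had lower estimates in subcutaneous BPA fat, with a median log2 fold change of -0.96, and 0 were called by edgeR (12 had an unadjusted p under 0.05). CD53, a tetraspanin of leukocytes, had 3.12 ± 1.47 CPM in BPA fat against 9.44 ± 1.52 CPM in control fat (SD, n = 4 each; log2 fold change -1.61 ± 0.33; edgeR adjusted p = 0.0576). LAPTM5, a lysosomal protein of leukocytes, had 22.3 ± 7.85 CPM in BPA fat against 51.8 ± 14.1 CPM in control fat (log2 fold change -1.21 ± 0.29; edgeR adjusted p = 0.0976). The exception was IRF8, a transcription factor of monocyte and dendritic lineages, at 0.00. Without controls 902 and 924 the list's median was -0.65.

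Macrophage subtypes were read from a pair of lists. Of 13 resident and scavenging macrophage genes, 11 had lower estimates (median -0.36, 0 called by edgeR, 6 at an unadjusted p under 0.05). LYVE1, a hyaluronan receptor that also marks lymphatic vessels, had 20.6 ± 8.38 CPM in BPA fat against 41.7 ± 5.92 CPM in control fat (log2 fold change -1.01 ± 0.24; edgeR adjusted p = 0.102), and F13A1, a coagulation factor subunit, had 118 ± 34.3 CPM in BPA fat against 249 ± 81.3 CPM in control fat (-1.07 ± 0.27; 0.113). Of 10 tested genes of lipid-associated macrophages, 7 had lower estimates (median -0.18, 0 called by edgeR). At an unadjusted p under 0.05 were 2 of the 10, near the share over all genes given above. Adipocytes also express several of these, such as PLIN2 and APOE. SPP1, which encodes osteopontin, had 2.10 ± 1.13 CPM in BPA fat against 19.3 ± 21.3 CPM in control fat (-3.19 ± 0.81; 0.119). Without controls 902 and 924 both lists had a median of -0.45.

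Partners of the adaptors and of complement were mostly lower in estimate as well. All 12 tested receptors, kinases and phosphatases that work with TYROBP and FCER1G had estimates below 0 (median -0.75, 0 called by edgeR, 7 at an unadjusted p under 0.05). They include MS4A2, the beta chain of the high-affinity IgE receptor (1.96 ± 1.08 CPM in BPA fat against 7.67 ± 1.33 CPM in control fat; -1.99 ± 0.40; edgeR adjusted p = 0.0514), and BTK, a kinase of B and myeloid cells (8.34 ± 3.11 CPM in BPA fat against 20.3 ± 8.86 CPM in control fat; -1.29 ± 0.36; 0.149). All 7 tested complement partners of C1q and C5AR1 were below 0 (median -0.68, 0 called by edgeR, 3 at an unadjusted p under 0.05). Among them C5AR2, the second C5a receptor, had 3.45 ± 1.09 CPM in BPA fat against 7.60 ± 2.43 CPM in control fat (-1.14 ± 0.34; 0.179). Without controls 902 and 924 the medians were -0.23 for the ITAM list and -0.04 for the complement list.

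Partners of CD14 in lipopolysaccharide sensing had a median of -0.18 over 7 tested genes, with 0 called by edgeR and 2 at an unadjusted p under 0.05. TLR2, a receptor for bacterial lipopeptides, had 3.65 ± 1.05 CPM in BPA fat against 8.61 ± 3.22 CPM in control fat (-1.23 ± 0.35; edgeR adjusted p = 0.155). The median was -0.30 without controls 902 and 924. Among growth factors and receptors of monocytes, 4 of 4 tested genes were below 0 (median -0.61, 0 called by edgeR, 2 at an unadjusted p under 0.05). CSF1, the main growth factor of macrophages, had 75.4 ± 6.0 CPM in BPA fat against 126 ± 27.4 CPM in control fat, with no overlap (-0.74 ± 0.17; edgeR adjusted p = 0.0811).

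Markers of other cells that share some of the 8 genes were summed in the same libraries. The 6 mast cell markers summed to 17.5 to 31.1 CPM in subcutaneous BPA fat and 54.9 to 91.4 CPM in control fat, and all 4 tested had estimates below 0 (median -1.93, and -1.61 without controls 902 and 924). KIT, the stem cell factor receptor, had 18.4 ± 4.98 CPM in BPA fat against 47.9 ± 18.2 CPM in control fat (-1.38 ± 0.28; edgeR adjusted p = 0.0564). MS4A2 stands on both the mast cell and the ITAM list. The 12 lymphocyte markers summed to 4.29 to 25.5 CPM in BPA fat and 15.8 to 51.5 CPM in control fat, the 5 tested being below 0 (median -0.87, and -0.28 without those controls). The 5 natural killer markers summed to 1.58 to 11.4 CPM in BPA fat and 4.55 to 14.3 CPM in control fat. The 10 neutrophil markers summed to 0.902 to 4.71 CPM in BPA fat and 4.51 to 10.8 CPM in control fat, none could be tested, and CXCR1 and MMP8 were at 0 in all 8 libraries. The 7 dendritic cell markers summed to 22.6 to 47.3 CPM in BPA fat and 45.0 to 80.6 CPM in control fat, and CD1E, a member of the CD1 family, had the smallest p (log2 fold change -2.19 ± 0.52; edgeR adjusted p = 0.0976). The median of the 3 tested was -0.95, and -0.57 without those controls.

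Genes of the connective tissue were among those called. Of 11 fibroblast and progenitor markers, 10 had lower estimates (median -0.97, and -0.71 without controls 902 and 924), and FN1, fibronectin (-1.67 ± 0.31; edgeR adjusted p = 0.0396), and THY1, a surface protein of fibroblasts (-1.03 ± 0.19; 0.0429), fell. Their summed level was 3747 to 6787 CPM in BPA fat and 6777 to 10569 CPM in control fat. The 9 endothelial markers had a median of -0.15 (-0.01 without those controls), with 0 called by edgeR and 0 at an unadjusted p under 0.05. Of 13 adipocyte markers 12 were above 0 (median 0.27, and 0.03 without those controls), with 0 called. Of 7 smooth muscle markers, 7 were above 0 (median 0.39) and LMOD1, leiomodin, rose (1.30 ± 0.25; 0.043). Without those controls the median was 0.47, with 1 of the 7 below 0. As edgeR then called 0 genes, FN1, THY1 and LMOD1 were not called. Limma voom, and edgeR with genes under 200 bases left out, called 0 genes lower, so FN1 and THY1 were not called there. The part of these cell types in the marker values was not tested.

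**Figure D3:**
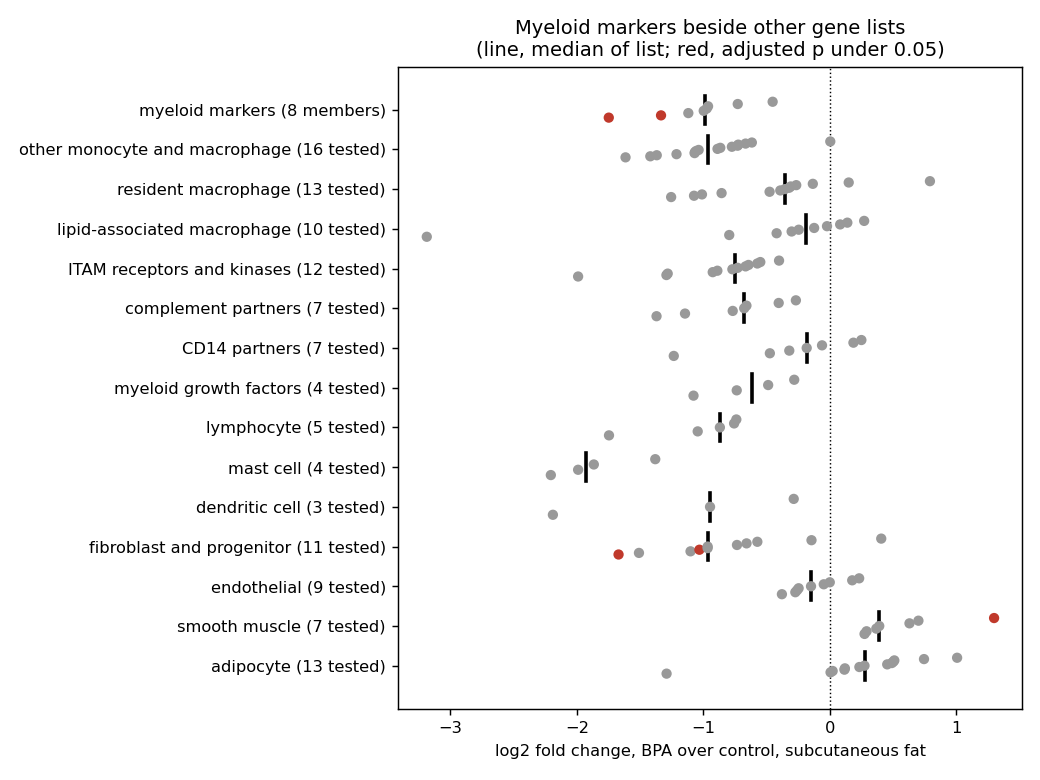
Log2 fold change, BPA over control in subcutaneous fat, of every tested gene on each list (points, red where the adjusted p was under 0.05), with the list's median (line). The 8 markers have a median of -0.98 and the mast cell list of -1.93, while the adipocyte list lies at 0.27.

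The same exposure was compared in visceral fat. None of the 8 markers was called there, and their log2 fold changes ran from -0.28 for MRC1 to 0.11 for CD14 (edgeR adjusted p 0.773 to 0.99). All 8 overlapped between groups, and 0 had an unadjusted p under 0.05. Over all 14774 genes edgeR called 0 (0%), and 1103 genes (7.47%) had an unadjusted p under 0.05. Limma voom called 0 of 14793 genes, and DESeq2 9 of the 21364 genes with any count.

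C5AR1 had 26.4, 15.4, 31.1 and 34.0 CPM in visceral BPA libraries 910, 918, 977 and 984, against 32.6, 23.2, 36.1 and 30.3 CPM in visceral control libraries 902, 908, 924 and 928 (log2 fold change -0.19 ± 0.25; edgeR adjusted p = 0.827). BPA library 918 was lowest and control 924 highest, and the rest were mixed. TYROBP had 13.2, 12.9, 8.98 and 15.1 CPM in the BPA libraries and 12.7, 9.56, 17.8 and 17.5 CPM in the controls, in the same order (-0.20 ± 0.25; edgeR adjusted p = 0.821). Each TYROBP value of visceral fat lay above the highest subcutaneous BPA value of 6.15 CPM.

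CD68 averaged 50.3 ± 9.39 CPM in visceral BPA fat and 47.3 ± 8.17 CPM in visceral control fat (log2 fold change 0.09 ± 0.18), and CD14 averaged 47.1 ± 10.2 CPM in visceral BPA fat and 43.8 ± 6.73 CPM in visceral control fat (0.11 ± 0.19). FCER1G averaged 23.6 ± 4.08 CPM in visceral BPA fat and 26.9 ± 3.8 CPM in visceral control fat (-0.19 ± 0.18). C1QA averaged 61.7 ± 11.6 CPM in visceral BPA fat and 67.5 ± 21.0 CPM in visceral control fat (-0.12 ± 0.22), and C1QC averaged 162 ± 67.9 CPM in visceral BPA fat and 161 ± 52.7 CPM in visceral control fat (0.01 ± 0.29), each with n = 4 per group. C1QC was highest in BPA library 977, the one that stood apart, at 261 CPM, and without it the log2 fold change of C1QC was -0.33 (edgeR adjusted p = 0.989, range over its 18 alternatives 0.782 to 0.998).

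MRC1 had the widest spread of all, with 196, 235, 219 and 717 CPM in visceral BPA libraries 910, 918, 977 and 984, against 328, 560, 324 and 451 CPM in visceral controls 902, 908, 924 and 928. Library 984 lay above every control, and the other 3 BPA libraries lay below every control. Its log2 fold change was -0.28 ± 0.40 with all libraries (edgeR adjusted p = 0.839) and -0.94 without library 984 (edgeR adjusted p = 0.404, range over its 18 alternatives 0.404 to 0.998).

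The other myeloid lists held few differences in visceral fat. The median was -0.18 over 17 monocyte and macrophage genes, with 0 called by edgeR and 2 at an unadjusted p under 0.05. These were CYBB, a subunit of the phagocyte oxidase, with 19.5 ± 3.92 CPM in BPA fat against 33.5 ± 5.99 CPM in control fat (-0.78 ± 0.20; edgeR adjusted p = 0.658), and FCGR3A, an IgG receptor that signals through FCER1G, with 17.0 ± 2.93 CPM in BPA fat against 28 ± 3.93 CPM in control fat (-0.71 ± 0.19; 0.658). Both had no overlap between groups, which held for 1.95% of all genes in the lower direction. The medians of the ITAM, complement and mast cell lists were -0.06, -0.19 and -0.11.

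The difference between both BPA effects, visceral minus subcutaneous, was tested as an interaction on all 16 libraries. It was above 0 for all 8 markers, while 48.1% of all genes lay below 0. Of the 8, 7 had an unadjusted p under 0.05, against 4.4% of all genes in that direction, and 0 were called by edgeR or DESeq2. Without subcutaneous controls 902 and 924, 4 of the 8 had an unadjusted p under 0.05, against 569 of 15765 genes in either direction. It was 1.56 ± 0.42 for TYROBP and 1.15 ± 0.32 for C5AR1 on the log2 scale (SE; edgeR adjusted p = 0.649 for both), and 0.17 ± 0.49 for MRC1 (edgeR adjusted p = 1). Over all 14793 genes edgeR called 0 (0%) and limma voom 0, and 917 genes (6.2%) had an unadjusted p under 0.05 in edgeR. DESeq2 called 12 of the 22435 genes with any count. A BPA effect on a marker was therefore not shown to differ between the depots. This comparison uses the same libraries as the comparisons within each depot.

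Visceral against subcutaneous fat of control ewes gave the depot difference without exposure. MRC1 rose, and the other 7 markers were not called, against 7.17% of all 14456 genes called higher and 6.16% called lower. MRC1 had 328, 560, 324 and 451 CPM in visceral controls 902, 908, 924 and 928, against 293, 212, 224 and 200 CPM in subcutaneous controls 902, 924, 928 and 931. The groups did not overlap, as held for 10.2% of all genes in that direction. It was 1.80-fold higher (log2 fold change 0.85 ± 0.20, SE, n = 4 each; edgeR adjusted p = 0.0206). The call was lost without visceral control 928 (edgeR adjusted p = 0.0601) or subcutaneous control 924 (0.0558), and over its 20 alternatives the adjusted p ran from 0.00117 to 0.998, the highest with the library total as a covariate. Totals did not overlap between the depots, so this covariate cannot separate depth from depot.

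The 3 control numbers found in both depots deviated together, so they were taken as pairs. With the number as a fixed replicate block, MRC1 stayed called (log2 fold change 0.60; edgeR adjusted p = 0.0338) and CD68 was called higher too (0.68; edgeR adjusted p = 0.0144), against 0.13 ± 0.29 without the block (edgeR adjusted p = 0.809). CD68 of subcutaneous control 931, at 77.1 CPM, has no visceral partner, and without that library the unblocked value was 0.56 (edgeR adjusted p = 0.0957). Over the 20 alternatives the adjusted p of CD68 ran from 0.0144 to 0.995. With the number as a random replicate block in limma voom, FCER1G was called (0.72; limma adjusted p = 0.0303) and MRC1 was not (0.78; limma adjusted p = 0.0885). Without a block FCER1G had 26.9 ± 3.8 CPM in visceral control fat and 17.4 ± 5.99 CPM in subcutaneous control fat (0.64 ± 0.24; edgeR adjusted p = 0.10). The remaining 5 markers had log2 fold changes from -0.29 for C5AR1 to 0.12 for CD14 (edgeR adjusted p 0.25 to 0.956).

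Macrophage genes of the same lists went both ways between the depots of control ewes. FOLR2, a folate receptor of resident macrophages, rose in visceral fat to 13.2 ± 3.54 CPM, against 4.09 ± 1.06 CPM in subcutaneous fat (log2 fold change 1.70 ± 0.28; edgeR adjusted p = 0.00397). ADGRE1, the gene of the mouse macrophage marker F4/80, fell to 2.48 ± 1.22 CPM in visceral fat, against 13.2 ± 6.96 CPM in subcutaneous fat (-2.41 ± 0.44; 0.00693). MERTK, a receptor for dying cells, also fell (-0.64 ± 0.19; 0.0438). GPNMB, a glycoprotein of lipid-laden macrophages, fell (-1.29 ± 0.34; 0.0296), and FABP5, a fatty acid carrier that adipocytes and endothelium also make, rose (1.77 ± 0.33; 0.00693). Without subcutaneous controls 902 and 924, FOLR2, MERTK, GPNMB and FABP5 were called in the same direction, and ADGRE1 was not called (-1.78 ± 0.47; 0.0505).

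Of the 13 tested ITAM partners, BTK (-1.35 ± 0.29; edgeR adjusted p = 0.0139), MS4A2 (-1.36 ± 0.36; 0.0324) and the phosphatase gene PTPN6 (-0.64 ± 0.18; 0.042) fell in visceral control fat, and 0 rose. Without subcutaneous controls 902 and 924 none of these 3 was called (edgeR adjusted p 0.101 for BTK, 0.143 for MS4A2 and 0.197 for PTPN6), while 1138 genes were called in all. The list's median then was 0.09 over 14 tested genes, against -0.59 with all libraries. Of the 7 complement partners, C2, a protease of the classical pathway, fell (-1.39 ± 0.28; 0.0105). Without those controls C2 was not called (-1.0 ± 0.27; 0.0547), and 3 others were called higher, namely C3, the central component (1.45 ± 0.21; 0.00466), the C1 inhibitor gene SERPING1 (1.0 ± 0.18; 0.014) and the protease gene C1S (0.77 ± 0.18; 0.0316). With all libraries these 3 had log2 fold changes of 0.30, 0.47 and 0.09 (0.662, 0.231 and 0.866). CSF2RB, the shared receptor chain for granulocyte-macrophage growth factor, and IL34, a ligand of the CSF1 receptor, fell (-1.77 ± 0.29 and -1.49 ± 0.33; 0.00359 and 0.0144), and without those controls CSF2RB was called (0.0177) and IL34 was not (0.065). Mast cell markers summed to 18.0 to 24.5 CPM in visceral control fat and 54.9 to 91.4 CPM in subcutaneous control fat, and KIT fell (-2.08 ± 0.26; 0.000967), as it did without those controls (-2.38 ± 0.24; 0.00107). Mesothelial markers, of the cell layer that covers visceral fat, summed to 50.9 to 105 CPM in visceral control fat and 4.07 to 9.03 CPM in subcutaneous control fat. Neutrophil markers summed to 8.33 to 55.8 CPM in visceral and 4.51 to 10.8 CPM in subcutaneous control fat. The part of these cells in the marker values was not tested.

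Visceral against subcutaneous fat was also compared in BPA ewes. All 8 had higher estimates in visceral fat, with a median log2 fold change of 0.98 against 0.02 for all 13782 genes tested, of which 48% lay below 0. CD68, FCER1G, TYROBP and CD14 rose, or 4 of 8, against 5.13% of all genes called higher and 3.94% called lower. These 4 had no overlap between depots, as did 9.57% of all genes in that direction. All 8 were higher at an unadjusted p under 0.05, as were 14.6% of all genes. DESeq2, which called 5.62% of the 21255 genes with any count higher, called 7 of the 8, all but MRC1. With the number as a fixed replicate block, edgeR called 3 of the 8 higher, namely CD68, FCER1G and C1QC. That fit called 4.06% of all genes higher. Only numbers 918 and 977 occur in both depots of BPA ewes, so it compares the depots within these numbers alone. For C1QC they had 151 and 261 CPM in visceral fat, against 94.6 and 81.9 CPM in subcutaneous fat. Visceral library 977 is the one that stood apart. All BPA libraries compared here are those of both exposure comparisons, so the values are not independent of the low subcutaneous levels above. Whether the depot difference of a marker differs between BPA and control ewes is the interaction given above, which called 0 of the 8.

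CD68 had 50.3, 46.0, 41.5 and 63.3 CPM in visceral BPA libraries 910, 918, 977 and 984, against 21.0, 20.7, 24.3 and 20.9 CPM in subcutaneous BPA libraries 918, 922, 941 and 977. The lowest visceral value lay well above the highest subcutaneous one, and CD68 was 2.31-fold higher (log2 fold change 1.21 ± 0.18, SE, n = 4 each; edgeR adjusted p = 0.00492). FCER1G had 22.2, 20.4, 22.3 and 29.6 CPM in the visceral and 10.9, 6.54, 7.32 and 6.95 CPM in the subcutaneous libraries, in the same order. It too had no overlap and was 2.96-fold higher (1.57 ± 0.24; edgeR adjusted p = 0.00553). Both were called in all 8 omissions of 1 library, and neither with the library total as a covariate (edgeR adjusted p = 0.248 and 0.245, the highest of their 19 alternatives, the lowest being 1.12e-06 and 1.84e-06).

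TYROBP had 13.2, 12.9, 8.98 and 15.1 CPM in visceral BPA libraries 910, 918, 977 and 984, against 4.53, 2.48, 6.15 and 3.81 CPM in subcutaneous BPA libraries 918, 922, 941 and 977. It was 2.96-fold higher with no overlap (1.57 ± 0.32; edgeR adjusted p = 0.0166), and called in all 8 omissions (edgeR adjusted p 0.00882 to 0.0495), and in 17 of all 19 alternatives (0.000337 to 0.327, the highest with the library total as a covariate). CD14 had 34.6, 43.8, 51.8 and 58.3 CPM in the visceral and 27.6, 17.1, 29.0 and 23.8 CPM in the subcutaneous libraries, in the same order, again with no overlap (0.95 ± 0.22; edgeR adjusted p = 0.0273). The CD14 call was lost in 5 of 8 omissions, those of visceral 984 and of each subcutaneous library (edgeR adjusted p 0.0506 to 0.081). It held in the other 3, and was lost with the covariate (0.316). Visceral BPA libraries had higher totals than subcutaneous ones with no overlap, so the covariate cannot separate depth from depot. With all libraries thinned to the lowest total CD68, FCER1G, TYROBP and CD14 were called.

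C1QC (0.91 ± 0.29; edgeR adjusted p = 0.0753), C1QA (0.63 ± 0.20; 0.0678), C5AR1 (0.84 ± 0.27; 0.0744) and MRC1 (1.01 ± 0.40; 0.139) were not called and overlapped between depots. The MRC1 estimate was 0.35 without visceral library 984 (edgeR adjusted p = 0.377, range over its 19 alternatives 0.0576 to 0.635).

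Among other macrophage genes of BPA ewes, FOLR2 rose in visceral fat (1.52 ± 0.31; edgeR adjusted p = 0.0166), as did HMOX1, the haem-degrading enzyme (1.0 ± 0.27; 0.0427). SPP1, osteopontin, rose to 17.7 ± 10.1 CPM in visceral BPA fat, against 2.10 ± 1.13 CPM in subcutaneous BPA fat (3.09 ± 0.57; 0.012). The ligands CX3CL1, fractalkine (1.32 ± 0.27; 0.0171), and CSF1 (0.57 ± 0.15; 0.0415) rose as well. Of 16 monocyte and macrophage genes 14 were above 0 (median 0.44), with 0 called by edgeR and 4 at an unadjusted p under 0.05. All 12 ITAM partners were above 0 (median 0.51), with 0 called by edgeR and 2 at an unadjusted p under 0.05. These counts cover both directions. With DESeq2 size factors in edgeR, 3720 of all 13782 genes had such a p in either direction, a share not below that of these lists. Mesothelial markers summed to 29.9 to 283 CPM in visceral BPA fat and 1.85 to 5.19 CPM in subcutaneous BPA fat. Natural killer markers summed to 10.8 to 27.4 CPM in visceral BPA fat and 1.58 to 11.4 CPM in subcutaneous BPA fat, and KLRK1, an activating receptor of these cells, rose (1.80 ± 0.49; 0.0446). The part of these cells in the TYROBP and FCER1G values was not tested.

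Ratios between markers within a library do not depend on library scaling, and were compared per kilobase as a description. C1QC over C1QA was 0.687 to 0.867 in subcutaneous BPA fat, 0.750 to 0.893 in subcutaneous control fat and 0.774 to 0.945 in visceral control fat. In visceral BPA fat it was 0.746 to 1.31, the highest being library 977. FCER1G over TYROBP was 1.28, 1.40, 0.634 and 0.972 in subcutaneous BPA libraries 918, 922, 941 and 977, and 0.599 to 0.738 in subcutaneous control fat. It was 0.844 to 1.32 in visceral BPA fat and 0.844 to 1.29 in visceral control fat, so the 4 subcutaneous controls lay below all 8 visceral libraries.

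MRC1 over C1QC was 1.13 to 1.58 in subcutaneous BPA fat and 0.744 to 1.40 in subcutaneous control fat. In visceral fat it varied more, with 1.26, 1.09, 0.584 and 3.89 in BPA libraries 910, 918, 977 and 984 and 1.47, 3.09, 0.951 and 2.51 in controls 902, 908, 924 and 928. Library 977 combined a high C1QC level with an ordinary MRC1 level, and library 984 the reverse.

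**Figure D4:**
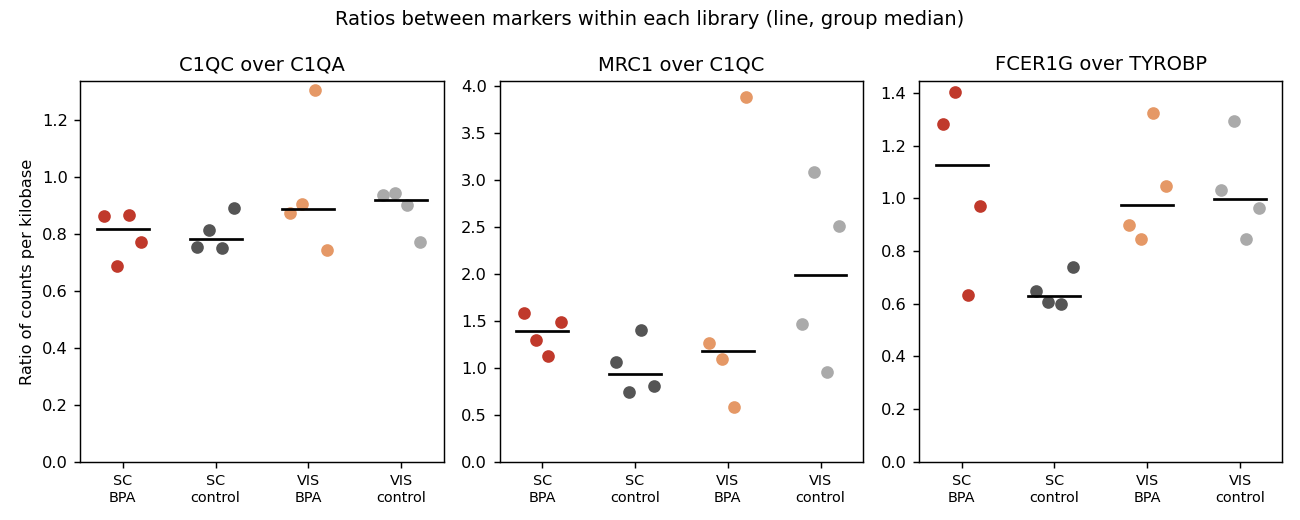
Ratio of counts per kilobase between pairs of markers (vertical axes from 0) in each library, with the median of each group (line). C1QC over C1QA stays between 0.687 and 1.31 in the 16 libraries, while MRC1 over C1QC reaches 3.89 in visceral BPA library 984.

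Across the 16 libraries, Pearson's r of log2 CPM between pairs of the 8 markers ran from 0.35 for MRC1 with C1QC to 0.93 for C1QA with C1QC, and was 0.88 for TYROBP with FCER1G. The points share library, depth and group, so these values are a description. Among 14785 other genes, the 8 whose log2 CPM followed the mean of the 8 markers most closely were CCND1 (r = 0.94), TLR8 (0.91), CD53 (0.91), FIGNL1 (0.89), ELP6 (0.89), TGFB1 (0.89), LAPTM5 (0.89) and EFHD2 (0.89). TLR8, an endosomal receptor for single-stranded RNA, CD53 and LAPTM5 are known as leukocyte genes, and CCND1 encodes cyclin D1. Within the 8 visceral libraries r was lower for all 8 of these genes, from 0.39 for TLR8 to 0.80 for CD53, than within the 8 subcutaneous libraries, where it ran from 0.86 to 0.96. These genes were picked over all 16 libraries. There the centred marker mean was -1.23 to -0.56 in subcutaneous BPA fat and -0.12 to 0.61 elsewhere, so these r values cannot compare the depots.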

How the data were processed

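The deposited values are raw counts of reads per gene. The submitters' processing notes name STAR 2.6.0c, Subread 1.6.1 (which holds featureCounts), FastQC 0.11.5 and MultiQC 0.9. Libraries were made from ribosome-depleted RNA with a low-input kit, per the labels' protocols. The sources used here do not give the genome build, annotation or strand setting, so no positions are given, and reads of overlapping genes on opposite strands cannot be told apart. The name of the deposited table calls its counts normalized, but all are whole numbers and the totals differ, so they were taken as raw. The table also holds a length in bases for each gene, used for the levels per kilobase.

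Members were matched by symbol. The members and gene lists were chosen with earlier results of these data known. Genes were filtered with filterByExpr (minimum count 10, minimum total 15), scaled with TMM and compared by edgeR 4.0.16 (R 4.3.3) with quasi-likelihood F tests, two-sided, with Benjamini-Hochberg adjustment over all genes tested and a threshold of 0.05. Each comparison used its own 8 libraries, and the interaction used 16. SEs were derived from the estimate and the F statistic. CPM are counts over TMM-scaled totals of the 16 libraries, with log2 values for correlations at a prior count of 2. The test was tried on simulated counts with known changes. P-values measure the spread between the libraries of a group, and the labels do not say that each came from its own ewe.

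Of the 8 markers every one was named, and of each other list up to 4 called genes by smallest p, or the 2 of smallest p where none was called. The text gives values for part of these, and IRF8, CXCR1, MMP8, PLIN2, APOE, C3, C1S and SERPING1 were named after values were seen. Numbers shared by both depots were checked as pairs by the correlation of deviations from the group means, which was 0.287, 0.40 and 0.332 for controls 902, 924 and 928 and 0.167 and 0.0313 for BPA 918 and 977. Alternatives were DESeq2 1.42.0, its size factors, no filter, a filter of 50 counts in 4 libraries, a fit of all 16 libraries, limma voom (limma 3.58.1) with and without a replicate block, a fixed block in edgeR, thinning to the lowest total, the library total as a covariate, omission of genes under 200 bases, and omission of libraries. Some results on single genes are not reported here.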

Additional observations from a re-analysis of the deposited data

Results flagged for a closer look

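Of 32 sets of 4 libraries (8 markers in 4 groups) tested for a value far from the other 3 by Dixon's ratio at its 95% critical value, 2 stood out, and chance gives about 1 in 20. MRC1 had 717 CPM in visceral BPA library 984, against 196 to 235 CPM in the other 3 of that group. CD68 had 24.3 CPM in subcutaneous BPA library 941, against 20.7 to 21.0 CPM in the other 3, a gap that is small beside the other groups' spread. The causes were not tested.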

How the results depend on the processing

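For BPA against control in subcutaneous fat edgeR called 96 genes and 2 markers. DESeq2 called 461 and 6, no filter 173 genes, the 50-count filter 54 and the fit of 16 libraries 46. The library total as a covariate left 13 genes and 0 markers, limma voom 1 and 0 with the replicate block and 1 and 0 without it, omission of genes under 200 bases 1 and 0, and omission of controls 902 and 924 together 0 and 0 (1576 genes at an unadjusted p under 0.05). Omitting 1 library gave 32 to 128 genes and 1 to 3 markers. All 8 estimates stayed below 0 in these settings, and the causes of the lost calls were not tested.

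In visceral fat, against 0 genes, DESeq2 called 9 and the covariate 1. The C1QC estimate turned to -0.015 with no filter, -0.030 with the replicate block, -0.022 in limma voom without it, -0.025 after thinning and -0.31 with the covariate, which also gave MRC1 0.0072 and TYROBP 0.043. Omitting 1 library turned C1QC (-0.33 to 0.25), CD68 (-0.043 to 0.16), CD14 (-0.013 to 0.23), C1QA (-0.25 to 0.10) and C5AR1 (-0.33 to 0.0054).

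Between the depots of control ewes, 1928 genes and 1 marker were called. The covariate left 0 and 0, omission of controls 902 and 924 1138 genes, and the fit of 16 libraries and limma voom without a block 0 markers each. As library totals did not overlap between the depots, the covariate cannot separate depth from depot, here or in BPA ewes. The fixed replicate block gave 2631 genes and 2 markers, and omissions 1043 to 1755 genes and 0 to 2 markers. The covariate turned CD14 to -0.29, C1QC to 0.50 and TYROBP to -1.10, and the fixed replicate block C1QC to 0.045. Omitting controls 902 and 924 turned CD68 to -0.22, CD14 to -0.097, C1QA to 0.076 and C1QC to 0.17. Single omissions turned C1QC (-0.30 to 0.042), CD68 (-0.066 to 0.56) and TYROBP (-0.14 to 0.24).

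Between the depots of BPA ewes, 1250 genes and 4 markers were called. DESeq2 gave 2182 and 7, the fit of 16 libraries 2408 genes, limma voom 2300 with the replicate block and 1971 without it, the covariate 225 and 0, and omissions 369 to 2206 genes and 3 to 5 markers. The covariate turned MRC1 to -0.63. For the BPA numbers found in both depots, 918 and 977, the correlations were 0.167 and 0.0313, against -0.0376 and -0.0195 with other numbers. These values are too small and too few to tell whether the numbers are pairs. The fixed replicate block, which compares the depots within 918 and 977 alone, gave 892 genes and 3 markers. Under it CD14 (adjusted p 0.052) and TYROBP (0.0786) were not called, and C1QC was (0.00825).

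For the difference between both BPA effects DESeq2 called 12 genes. MRC1 turned to -0.041 with the replicate block, -0.0022 in limma voom without it and -0.18 with the covariate, and ran from -0.49 to 0.36 over single omissions. Of all alternative marker values, 726 kept their direction and side of the threshold, 35 lost a call, 18 gained one and 37 changed sign. The 726 include markers that were not called and stayed so, and only a marker called in the main fit could lose a call. TYROBP had the lowest counts of the 8 markers in subcutaneous BPA fat, with 11 to 22 per library. The part of depth in its lost calls was not tested.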
